A study of Mus musculus with 8 samples.

Results

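Hedgehog reception and Gli transcription factor genes were examined in the mouse outflow tract (OFT), the vessel-forming pole of the embryonic heart. The 8 genes were picked by name as the central components through which a cell receives the Hedgehog signal and turns it into transcription: the receptor Ptch1, the signal transducer Smo, the co-receptors Boc and Gas1, the inhibitor Sufu, and the transcription factors Gli1, Gli2 and Gli3. All 8 were found among the 14608 genes of the expression table. RNA-seq was performed on OFT tissue dissected at embryonic day 11.5 from control embryos (labelled Control, 4 libraries) and from Mib1V943F/+ Gata6STOP/+ embryos (4 libraries), which carry a missense allele of the Notch ligand ubiquitin ligase Mib1 together with a null allele of the cardiac transcription factor Gata6, each in the heterozygous state. The labels state that every library was made from tissue pooled from 3 individuals, and the study's methods describe the number and size of the pools differently, so the number of embryos behind each library is uncertain. In either case, differences between single embryos were averaged within a library, and no single-heterozygous group is part of these samples. The alleles are germline mutations, and all cell types of the dissected tissue carry them.

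In the absence of ligand, the Ptch1 protein represses Smo, Sufu retains the Gli proteins, and Gli3 is cut into a repressor at the primary cilium. Binding of a Hedgehog ligand to Ptch1, aided by Boc, Gas1 and Cdon, releases Smo, and Gli2 and Gli3 are then kept as activators. Gli1 and Ptch1 are themselves transcribed in response, so that their mRNAs are widely read as measures of pathway activity, whereas the mRNAs of the other genes report the presence of the machinery. During formation of the OFT, Sonic hedgehog from the pharyngeal endoderm acts on second heart field progenitors and on neural crest cells, and loss of the ligand impairs septation of the OFT.

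Because Ptch1 is a classical Gli target, and because Gli2 was the gene with a Gli-like core among those with a sequence at hand, both upstream windows are shown. Each holds the 250 bases before the transcription start in RefSeq's annotation of GRCm38.p6, read 5′ to 3′ on the strand of the gene, and capitals mark a match to the core letters ACCACCC on either strand. The Ptch1 window is chr13:63565736-63565985 on the minus strand, which lies within the gene body of a longer annotated isoform and overlaps no annotated exon. The Gli2 window is chr1:119053620-119053869 on the minus strand, upstream of the annotated gene.
Ptch1: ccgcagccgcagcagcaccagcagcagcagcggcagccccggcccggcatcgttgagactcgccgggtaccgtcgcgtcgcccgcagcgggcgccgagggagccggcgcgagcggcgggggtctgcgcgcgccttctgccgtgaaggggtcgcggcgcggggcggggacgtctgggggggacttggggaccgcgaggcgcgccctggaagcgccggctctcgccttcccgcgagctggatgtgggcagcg
Gli2: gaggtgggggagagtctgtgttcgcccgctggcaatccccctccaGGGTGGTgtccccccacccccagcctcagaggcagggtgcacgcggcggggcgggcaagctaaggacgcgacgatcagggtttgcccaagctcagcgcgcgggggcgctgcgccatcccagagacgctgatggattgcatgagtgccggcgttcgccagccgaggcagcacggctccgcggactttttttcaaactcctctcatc
The Gli2 window held the core once, on the reverse strand, starting 205 bases before the start, and the Ptch1 window held none. RefSeq entries were at hand for 6 of the 8 genes, and Gli1 and Boc had no entry. Across all 32851 promoter sequences of 250 bases upstream and 50 downstream, 4.61% held ACCACCC, compared with 1 of these 6. The longer consensus GACCACCCA, which contains the core, occurred in 0.253% of all promoters and in 0 of these 6.

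All 8 genes were expressed in every library. Total reads on the listed genes, as recovered from the step of the deposited CPM values (reads of a gene scaled to the size of the library), ranged from 10669420 in control replicate 2 to 30469165, with a median of 26053018, so that 1 read was worth 0.0325 to 0.0948 CPM. The least covered gene was Gli1, with 35 to 582 reads per library, and the other 7 had at least 362 reads in each library. Several libraries stood apart. Mutant replicate 2 held the lowest value of the 8 libraries for 26.2% of all genes and the highest for 27.3%. Control replicate 2, the least deeply sequenced, held the lowest for 22.2% and the highest for 22.1%. Mutant replicate 1 was not extreme by this measure (10.1% and 11.2%). It held 10 genes that were over 1 log2 unit above the next library, Gli1 among them. Mutant replicate 2 held 8 such genes and control replicate 2 held 7. For the genes named, log2 fold changes were also taken without 1 of these 3 libraries. They are given where the value moved by over 1.5 times, changed sign or crossed an unadjusted p of 0.05. Exceptions are Kif7, differences of Smo that stayed within 0.10 of 0, and Gata6, which is given without mutant replicate 1 only. Levels of the mutated genes did not separate the groups: Gata6 mRNA was 262 ± 18.5 CPM in control and 249 ± 36.1 CPM in mutant OFTs (SD, n = 4), and Mib1 mRNA was 122 ± 15.6 and 128 ± 6.62 CPM. For Gata6, the gene with the null allele, the log2 fold change was -0.08 (95% CI -0.29 to 0.14), and -0.01 without mutant replicate 1. Mutant replicates 2 and 3 were above the control mean. A loss of all mRNA from 1 of the 2 alleles lies outside this interval, whose nearest bound is -0.29. The Gata6 mRNA level thus does not bear out the labels. The null allele is a stop mutation, and whether it keeps its mRNA was not tested, so the level does not show wrong labels either. The study reports lower Gata6 mRNA in this genotype by quantitative PCR. Every direction given here between control and mutant libraries rests on the labels alone.

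None of the 8 genes passed the test for a difference between genotypes (limma on log2 of CPM plus 0.5, Benjamini-Hochberg adjustment over 14608 genes, adjusted p below 0.05). No gene of the whole table passed it either (0%), and the smallest adjusted p was 0.124. Without adjustment, 1 of the 8 genes, Gli3, had p below 0.05, against 12.1% of all genes. In none of the 8 did the control and mutant libraries occupy separate ranges, which occurred for 7.1% of all genes. The log2 fold changes of the 8 genes ran from -0.06 to 0.52 with a median of 0.16, while the median over all genes was 0.001, and without mutant replicate 1 the median of the 8 was 0.04.

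**Figure D1:**
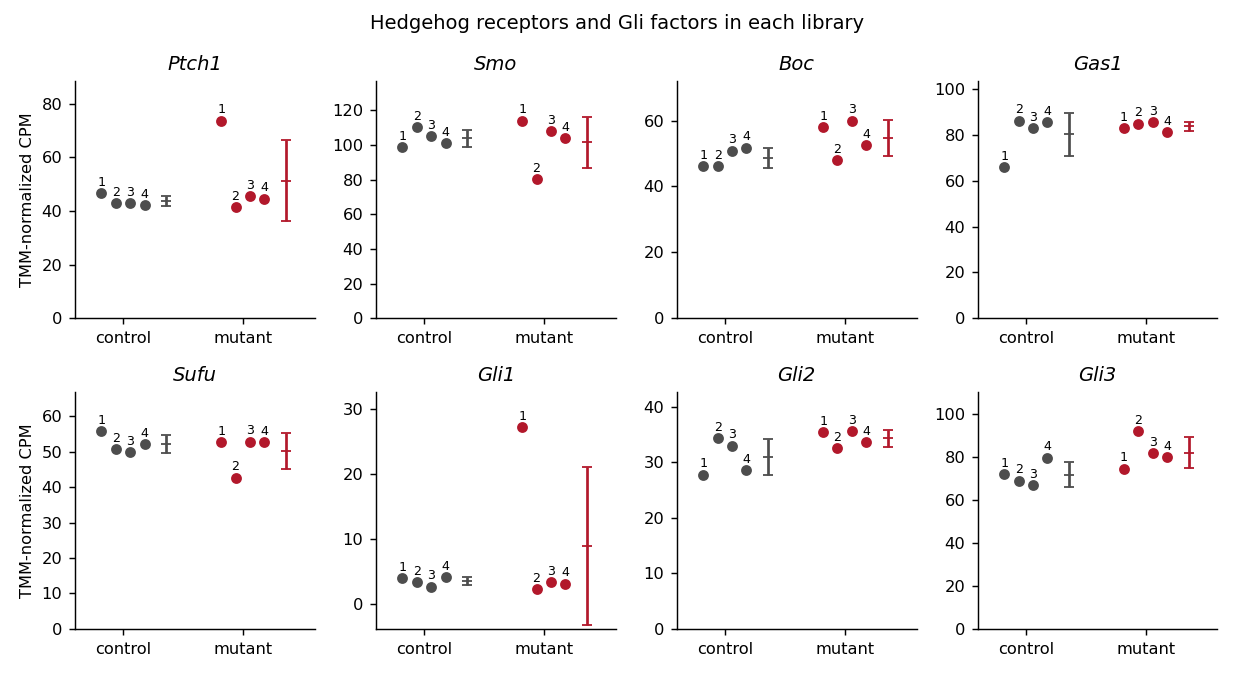
TMM-normalized CPM of each gene in the 4 control and 4 mutant libraries; numbers beside the points are replicate numbers, and bars to the right of each group give the mean and SD. Mutant replicate 1 stands above all other libraries for Gli1 (27.2 CPM) and Ptch1 (73.7 CPM), and the groups overlap in all 8 panels.

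The genes were present at very different levels. Per kilobase of the longest annotated transcript, the order by the median of the 8 libraries ran from Gas1 (27.1 CPM per kb in control, 28.3 in mutant) and Smo (27.4 and 26.8) through Sufu (11.5 and 11.1), Boc (10.9 and 12.3) and Gli3 (8.8 and 10) to Gli2 (4.66 and 5.16), Ptch1 (4.2 and 4.94) and Gli1 (0.862 and 2.21). Neighbours in this order were separated over all 8 libraries at the steps from Smo to Sufu and from Gli3 to Gli2. The ranges of the other neighbours overlapped, with Gas1 above Smo in 5 of 8 libraries and Sufu above Boc in 2 of 8. Ptch1 was above Gli1 within each of the 8 libraries, although the Gli1 level of mutant replicate 1 overlapped the range of Ptch1.

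**Figure D2:**
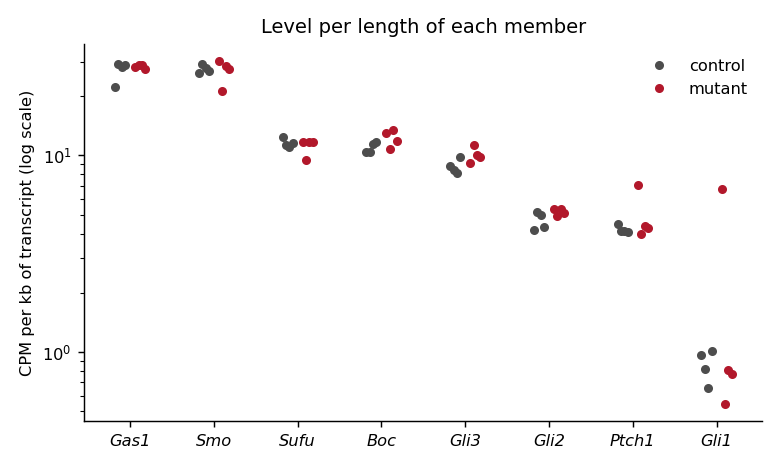
CPM per kilobase of transcript (log axis) for each gene, with 1 point per library, controls in grey and mutants in red. Gas1 and Smo lie together above 20 CPM per kb, and Gli1 is lowest in 7 libraries, with 1 mutant library raised into the range of Ptch1.

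Ptch1, the Hedgehog-binding receptor and a target of the pathway it restrains (chromosome 13, 63508328 to 63573598, minus strand, GRCm38), measured 46.6, 42.9, 42.9 and 42.2 CPM in control replicates 1 to 4 and 73.7, 41.5, 45.5 and 44.6 CPM in mutant replicates 1 to 4. A single mutant library was high, and the other mutant libraries lay among or beside the controls. The log2 fold change was 0.19 (SE 0.15, 95% CI -0.13 to 0.51; limma p = 0.212, adjusted p = 0.587; two-sided exact permutation p = 0.429). Without mutant replicate 1 it was 0.01, with means of 43.6 ± 1.99 CPM in control (SD, n = 4) and 43.9 ± 2.12 CPM in mutant OFTs (n = 3).

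Smo, the transmembrane transducer that Ptch1 represses (chromosome 6, 29735503 to 29761365, plus strand), had the highest mean CPM of the 8. Control libraries held 98.8, 110, 105 and 101 CPM, and mutant libraries held 114, 80.4, 108 and 104 CPM. Mutant replicate 2 was lowest of all and mutant replicate 1 highest, with the controls between them. The log2 fold change was -0.04 (SE 0.10, 95% CI -0.26 to 0.17; limma adjusted p = 0.876), and it turned to 0.06 without mutant replicate 2.

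The co-receptors, which bind ligand together with Ptch1, had no adjusted p below 0.05. Boc, an immunoglobulin and fibronectin repeat protein (chromosome 16, 44485049 to 44558897, minus strand), was at 46.1, 46.1, 50.9 and 51.8 CPM in control and at 58.1, 47.9, 60 and 52.5 CPM in mutant OFTs. Of the mutant libraries, replicate 2 alone lay inside the control range. The log2 fold change of Boc was 0.16 (SE 0.08, 95% CI -0.02 to 0.34; limma p = 0.0812, adjusted p = 0.456; exact permutation p = 0.114). Without mutant replicate 2 it was 0.22 (limma adjusted p = 0.41), with the unadjusted p below 0.05.

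Gas1, a membrane-anchored co-receptor (chromosome 13, 60174405 to 60177365, minus strand), was at 66.2, 86.4, 83.1 and 85.6 CPM in control and at 83.2, 85.1, 85.8 and 81.2 CPM in mutant OFTs. The spread of the controls was wider than that of the mutants (80.3 ± 9.52 against 83.8 ± 2.06 CPM, SD, n = 4), because control replicate 1 lay below the other 7 libraries. Its log2 fold change of 0.07 (SE 0.09, 95% CI -0.12 to 0.26; limma adjusted p = 0.749) became -0.02 when that library was left out and 0.11 without control replicate 2.

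Sufu, the cytoplasmic inhibitor that holds Gli proteins (chromosome 19, 46396896 to 46488804, plus strand), showed 55.8, 50.8, 50 and 52.1 CPM in control and 52.7, 42.7, 52.9 and 52.8 CPM in mutant libraries. Mutant replicate 2 was low, and the remaining 7 libraries lay between 50 and 55.8 CPM. The log2 fold change was -0.06 (SE 0.08, 95% CI -0.24 to 0.12; limma adjusted p = 0.789), and 0.02 without mutant replicate 2.

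Gli1, the activator that is transcribed in response to the signal (chromosome 10, 127329882 to 127341974, minus strand), was scarce in 7 of 8 libraries. Control replicates held 3.93, 3.32, 2.66 and 4.09 CPM, and mutant replicates held 27.2, 2.21, 3.28 and 3.12 CPM. Mutant replicate 1 was 8.28 times the median of the other 7 libraries, while the other mutant libraries overlapped the controls, with replicate 2 below all of them. These levels rest on 582 reads in mutant replicate 1 (95% Poisson interval 25 to 29.5 CPM, counting error only) and on 35 to 109 reads in each of the others. Over all libraries the log2 fold change was 0.52 (SE 0.56, 95% CI -0.71 to 1.74; limma p = 0.376, adjusted p = 0.718; exact permutation p = 0.914). Without mutant replicate 1 it was -0.25 (95% CI -0.67 to 0.17; limma adjusted p = 0.583), from 3.5 ± 0.648 CPM in control (SD, n = 4) to 2.87 ± 0.58 CPM in mutant OFTs (n = 3). Without mutant replicate 2 it was 0.87 (95% CI -0.37 to 2.11).

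Gli2, the principal activator (chromosome 1, 118834132 to 119053619, minus strand), measured 27.8, 34.3, 33 and 28.6 CPM in control and 35.4, 32.5, 35.6 and 33.7 CPM in mutant OFTs. Control replicates 1 and 4 were the lowest libraries, and control replicates 2 and 3 lay within the mutant range. The log2 fold change was 0.15 (SE 0.09, 95% CI -0.04 to 0.34; limma p = 0.104, adjusted p = 0.486; exact permutation p = 0.143). Without control replicate 2 it was 0.20 (limma adjusted p = 0.627), with the unadjusted p below 0.05.

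Gli3, the main source of Gli repressor (chromosome 13, 15463235 to 15730026, plus strand), had the smallest unadjusted p of the 8. It was at 71.9, 69, 66.8 and 79.7 CPM in control and at 74.6, 92, 81.7 and 79.9 CPM in mutant OFTs. Mutant replicate 2 was highest, and the overlap between groups came from control replicate 4 and mutant replicate 1. The means were 71.9 ± 5.63 and 82 ± 7.29 CPM (SD, n = 4), a log2 fold change of 0.19 (SE 0.08, 95% CI 0.01 to 0.36; limma p = 0.0381, adjusted p = 0.402; exact permutation p = 0.0571, where 0.0286 was the smallest value 4 against 4 libraries allow). Without mutant replicate 1 the difference was 0.23 (limma adjusted p = 0.354), without mutant replicate 2 it was 0.13 (adjusted p = 0.617), and without control replicate 2 it was 0.17 (adjusted p = 0.709). Its unadjusted limma p exceeded 0.05 when any 1 library other than control replicate 4 or mutant replicate 1 was left out. In comparison, 5.45% of all genes had an unadjusted p below 0.05 in the direction of Gli3.

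**Figure D3:**
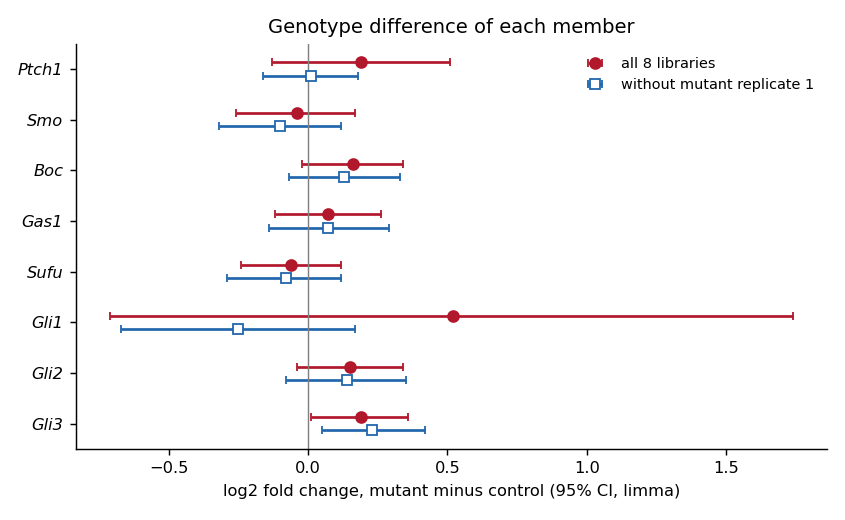
Log2 fold change of each gene, mutant minus control, with its 95% confidence interval from limma, for all 8 libraries (red circles) and without mutant replicate 1 (open blue squares). Gli1 moves from 0.52 to -0.25 and Ptch1 from 0.19 to 0.01, while Gli3 stays at 0.19 and 0.23.

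Libraries differed in how gene levels depended on base composition, and the 8 genes are not alike in this respect. The longest transcripts of Gli1 (59% GC), Gas1 (58.4%), Smo (57.8%), Gli2 (57.5%), Boc (55.9%) and Sufu (55.8%) were above the median of all genes (49.5%), whereas those of Gli3 (48.4%) and Ptch1 (47.8%) were below it. In mutant replicate 2 the log2 level dropped by 0.179 per 10% of GC relative to the mean library, and in control replicate 2 it was higher by 0.213. When this trend was removed from each library, the difference was 0.25 for Gli2 (limma adjusted p = 0.167), 0.24 for Boc (adjusted p = 0.284), 0.18 for Gli3 (adjusted p = 0.376) and 0.17 for Gas1 (adjusted p = 0.431). That made 4 of 8 genes below an unadjusted 0.05 (11.2% of all genes in the same fit), compared with 1 in the deposited values, and none passed after adjustment. Smo and Sufu were then at 0.06 and 0.02.

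The ratio of Gli1 to Gli3 mRNA, which sets a gene transcribed in response to the signal against the main repressor source, was 0.0546, 0.0481, 0.0399 and 0.0513 in control and 0.364, 0.024, 0.0402 and 0.0391 in mutant libraries. Mutant replicate 1 was far above all controls, and mutant replicate 2 was below them. Mutant replicates 3 and 4 lay beside control replicate 3, the lowest control. Gli1 had 101, 82 and 66 reads in these libraries, too few to order them. Mutant replicate 2 had 60 reads of Gli1. Its Poisson interval for Gli1 (1.68 to 2.84 CPM) overlapped that of control replicate 3 (2.06 to 3.39 CPM). Across the 8 libraries, Ptch1 and Gli1 had a Pearson's r of 0.975 (exact permutation p = 0.0164, adjusted p = 0.46 over 28 pairs of the 8 genes) and a Spearman's rho of 0.5 (exact permutation p = 0.216, adjusted p = 0.681). The linear relation rested on mutant replicate 1: r was 0.488 without it and 0.288 without control replicate 1 and mutant replicate 1, the libraries farthest from the median of Ptch1. None of the 28 pairs had an adjusted p below 0.05 by either measure.

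By the size of the gap to the next library, the excess of Gli1 in mutant replicate 1 ranked 2 of 14608 genes. Irx1, an Iroquois homeobox gene, ranked 1, with 38.5 CPM against at most 5.48 CPM elsewhere, and Six2, a homeobox gene of second heart field progenitors, ranked 3, with 17.7 CPM against at most 2.94 CPM. Ptch1 ranked 39. Of the 15 measured Hedgehog-responsive genes outside the 8, 4 were highest in the same library, as were 11.2% of all genes. Foxl1, a forkhead factor of mesenchyme downstream of Hedgehog signals, was 1.97 times the median of the other 7 libraries, and Hsd11b2 was 1.88 times. The remaining 6 of the 8 genes stood at 0.935 to 1.14 times that median.

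The library also held the highest summed level of second heart field and pharyngeal mesoderm markers. Of 11 measured markers of that territory, 5 were highest in mutant replicate 1, and their summed level was 497 CPM there, against 404 to 439 CPM in controls and 415 to 446 CPM in the other mutants. Isl1, the defining second heart field factor, was at 25.7, 26.8, 33 and 31.1 CPM in control and at 59.2, 40.7, 43.4 and 41.4 CPM in mutant libraries (log2 fold change 0.64, limma adjusted p = 0.142). Fgf8, Hoxb1 and Lhx2, further markers of that list, are not listed in the table. Of 15 markers of pharyngeal endoderm and epithelium, the source of the ligand, 4 are listed, and 2 of them were highest in mutant replicate 1. Cldn4 was at 2.94 CPM there and at most at 1.32 CPM elsewhere, and Sox2 was at 3.08 CPM there and at most at 2.02 CPM elsewhere. The keratins Krt8 and Krt18, at 42.6 and 32.6 CPM there, made up most of the list's sum, which was 81.2 CPM in mutant replicate 1 and 71.2 to 90.9 CPM in controls. Shh, Epcam, Cdh1 and Foxa2 are not listed. The part of these cells in the Gli1 and Ptch1 values was not tested. In whole-tissue libraries, more cells of a type and more mRNA per cell cannot be told apart.

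**Figure D4:**
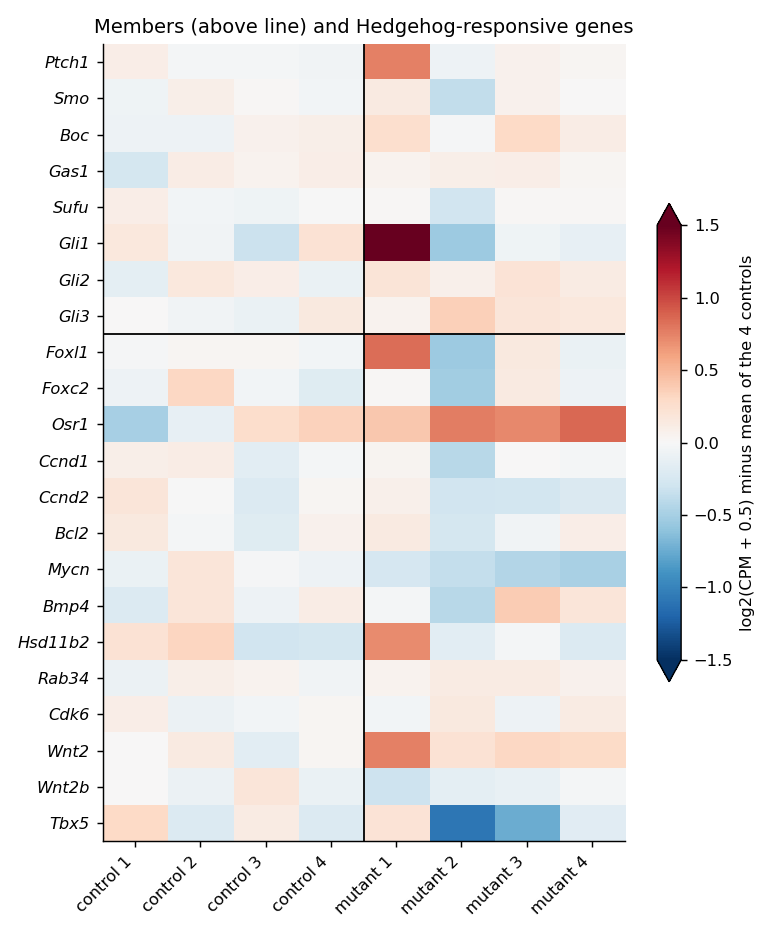
Log2(CPM + 0.5) minus the mean of the 4 controls, by library (columns), for the 8 genes (above the line) and measured Hedgehog-responsive genes (below it), on a colour scale that ends at 1.5 in either direction. Mutant replicate 1 is red for Gli1, Ptch1, Foxl1, Hsd11b2 and Wnt2, while Osr1 and Mycn differ in the same direction in all 4 mutant libraries.

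The list of genes known to respond to Hedgehog signals was mixed. Of 23, 15 were measured, 7 were higher and 8 lower in mutant OFTs, none with an adjusted p below 0.05 (median log2 fold change -0.02). With unadjusted p below 0.05 there were 2 higher (5.45% of all genes) and 1 lower (6.62%). Without mutant replicate 1 these counts were 1 (5.8% of all genes) and 4 (6.46%), and the median was -0.13.

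Osr1, a zinc finger factor of second heart field progenitors and atrial septum formation, was at 4.54, 6.07, 8.07 and 8.59 CPM in control and at 8.96, 11.6, 11.2 and 12.4 CPM in mutant libraries. All mutant libraries were above all controls (log2 fold change 0.68, SE 0.18, limma p = 0.00242, adjusted p = 0.238; exact permutation p = 0.0286). Unlike Gli1, its level in mutant replicate 1 was the lowest of the mutants.
Wnt2, a secreted Wnt ligand of the posterior second heart field, was also without overlap, at 3.63 to 4.55 CPM in control and 4.86 to 7.33 CPM in mutant OFTs (log2 fold change 0.39, SE 0.15, limma p = 0.0204, adjusted p = 0.354; exact permutation p = 0.0286). The highest value was that of mutant replicate 1, without which the difference was 0.27 (95% CI -0.03 to 0.57; limma adjusted p = 0.442) and the unadjusted p was above 0.05.
Mycn, a Myc family gene that drives proliferation, was at 55, 66.9, 58.2 and 55.8 CPM in control and at 49.3, 45.6, 43.3 and 42 CPM in mutant OFTs. The ranges were separate, with all mutants below (log2 fold change -0.38, SE 0.08, limma p = 0.000522, adjusted p = 0.195; exact permutation p = 0.0286).

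The ligand mRNAs offered little to read. Shh and Ihh are not listed in the table. Dhh, the remaining ligand, which is made by Schwann cells and endothelium among other cells, was at 15.9, 21.2, 17.7 and 15.6 CPM in control and at 16.9, 24.5, 24.6 and 19 CPM in mutant libraries. Mutant replicates 2 and 3 were above all controls and the others were among them (log2 fold change 0.26, SE 0.14, limma p = 0.0876, adjusted p = 0.462; exact permutation p = 0.2). The unadjusted p was below 0.05 without mutant replicate 1, at 0.36 (limma adjusted p = 0.357), and without control replicate 2, at 0.35 (adjusted p = 0.584). Scube3, which aids ligand release, was at 21.7 to 25.3 CPM in control and 23.5 to 35.3 CPM in mutant OFTs, highest in mutant replicate 1 (log2 fold change 0.23, limma adjusted p = 0.455). It was 0.10 without that library (limma adjusted p = 0.632), and 0.29 without mutant replicate 2 (adjusted p = 0.524), the latter with an unadjusted p below 0.05. None of the 6 measured genes of ligand synthesis and release had an unadjusted p below 0.05 with all libraries (12.1% of all genes; median log2 fold change 0.01), and without mutant replicate 1 there was 1 higher, Dhh (5.8% of all genes).

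Of 12 other reception genes, 2 were higher (5.45% of all genes) and 1 lower (6.62%) at an unadjusted p below 0.05, with a median log2 fold change of 0.14. Without mutant replicate 2 these counts were 0 (3.64%) and 1 (5.46%), and without control replicate 2 both were 0 (3.08% and 4.59%). Cdon, the co-receptor most like Boc, was at 101, 94.5, 100 and 107 CPM in control and at 104, 121, 111 and 116 CPM in mutant libraries. Mutant replicate 1 was the one mutant library inside the control range (log2 fold change 0.17, SE 0.07, limma p = 0.0318, adjusted p = 0.389; exact permutation p = 0.0571), and the difference was 0.13 without mutant replicate 2 and 0.14 without control replicate 2, both with an unadjusted p above 0.05.
Lrp2, an endocytic receptor that takes up Shh, was at 9.96 to 15.3 CPM in control and 12.7 to 25.5 CPM in mutant OFTs, with the highest value in mutant replicate 2 (log2 fold change 0.45, limma p = 0.0471, adjusted p = 0.411; exact permutation p = 0.143). Without that library it was 0.23 (95% CI -0.09 to 0.54; limma adjusted p = 0.662), and without control replicate 2 it was 0.37 (adjusted p = 0.729), both with an unadjusted p above 0.05.
Mgrn1, a ubiquitin ligase that lowers Smo at the cell surface, was at 156 to 182 CPM in control and 146 to 158 CPM in mutant OFTs (log2 fold change -0.16, limma p = 0.0338, adjusted p = 0.392; exact permutation p = 0.0571), with overlap from control replicate 4 and mutant replicate 3. It was -0.14 without mutant replicate 1 and -0.12 without control replicate 2, both with an unadjusted p above 0.05.

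Among 23 genes of Gli processing and transduction, 0 were higher (5.45% of all genes) and 1 lower (6.62%) at an unadjusted p below 0.05, a share no greater than that of all genes, and the median log2 fold change was -0.03. The lower gene was Prkaca, the catalytic subunit of protein kinase A, which phosphorylates Gli2 and Gli3 and thereby primes them for processing. It was at 163, 174, 167 and 156 CPM in control and at 148, 130, 146 and 151 CPM in mutant libraries. Every mutant library was below every control (log2 fold change -0.20, SE 0.07, limma p = 0.0116, adjusted p = 0.315; exact permutation p = 0.0286). Kif7, the ciliary kinesin that organises Gli proteins at the cilium tip, was at 18.4 ± 2.14 and 17.9 ± 0.692 CPM (SD, n = 4; log2 fold change -0.03, 95% CI -0.24 to 0.17; limma adjusted p = 0.898).

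Of 38 genes of the primary cilium, 2 were higher (5.45% of all genes) and 0 lower (6.62%) at an unadjusted p below 0.05, the former close to the share of all genes, with a median log2 fold change of 0.05. Without mutant replicate 1 there were 1 higher and 2 lower (5.8% and 6.46%). Kifap3, a subunit of the kinesin motor of intraflagellar transport, was at 52.4 to 64.7 CPM in control and 63.5 to 78.4 CPM in mutant OFTs (log2 fold change 0.20, limma p = 0.0452, adjusted p = 0.407; exact permutation p = 0.0571). It was 0.21 without mutant replicate 1, 0.14 without mutant replicate 2 and 0.13 without control replicate 2, each with an unadjusted p above 0.05. Cep290, a transition zone protein, was at 15, 11.3, 12.5 and 11.9 CPM in control and at 14.4, 15.7, 15.4 and 15.2 CPM in mutant libraries (log2 fold change 0.26, limma p = 0.0237, adjusted p = 0.364; exact permutation p = 0.0571). Control replicate 1 lay among the mutants, and the other controls were below them. Without control replicate 2 the difference was 0.21, with an unadjusted p above 0.05.

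**Figure D5:**
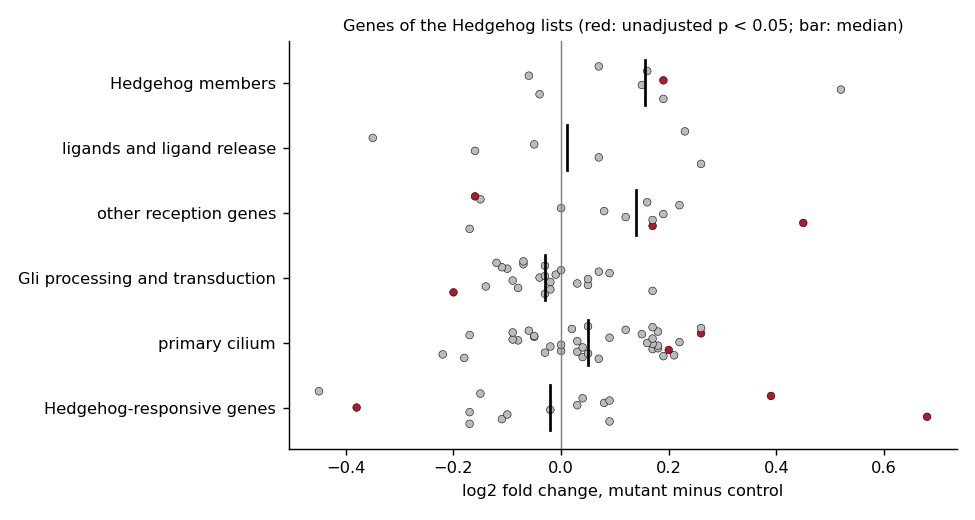
Log2 fold change, mutant minus control, of each measured gene of the Hedgehog lists, with 1 point per gene, red where the unadjusted limma p was below 0.05, and a bar at the list's median. The medians run from -0.03 for Gli processing to 0.16 for the 8 genes, and the widest spread is among the Hedgehog-responsive genes, from -0.45 (Tbx5) to 0.68 (Osr1).

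Cardiomyocyte markers moved with the genotype. Of 20 cardiomyocyte markers, 20 were lower in mutant OFTs, 19 with an unadjusted p below 0.05 (6.62% of all genes) and 0 after adjustment by limma. In 15 of them every mutant library was below every control, as in 569 of all 14608 genes. The summed level of the 20 markers was 32061 to 37550 CPM in control and 25666 to 29871 CPM in mutant libraries. Of 11 second heart field and pharyngeal mesoderm markers, 4 were higher (5.45% of all genes) and 0 lower at an unadjusted p below 0.05. The median log2 fold change was 0.25 (0.16 without mutant replicate 1, with 3 higher, against 5.8% of all genes). In 3 of the 11 every mutant library was above every control, as in 468 of all 14608 genes. At an unadjusted p below 0.05, smooth muscle markers were mixed, with 3 of 10 higher (5.45% of all genes) and 3 lower (6.62%). By the same rule, endocardium and endothelium had 3 of 15 lower, and epicardium and macrophages each had 1 of 12 lower. Neural crest with glia and neurons had 2 of 10 higher. The summed ranges overlapped for these and the remaining lists: cushion mesenchyme at 6803 to 7271 CPM in control and 6194 to 8183 CPM in mutant, endocardium and endothelium at 1240 to 1489 and 1251 to 1384 CPM, and smooth muscle at 3446 to 3928 and 3323 to 3929 CPM. Epicardial markers summed to 492 to 630 CPM and 478 to 758 CPM, neural crest with glia and neurons to 337 to 446 and 301 to 437 CPM, erythroid cells to 1852 to 3770 and 1555 to 5775 CPM, and macrophages to 66.9 to 83.7 and 65.9 to 101 CPM. CPM values are shares of a library, and the part of the lower cardiomyocyte share in the values of Gli2, Gli3, Boc and Cdon was not tested.

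For each of the 8 genes, the genes with the most similar pattern over the 8 libraries were sought among 11636 genes that averaged 5 CPM or more, as a description by Pearson's r of log2 levels. Libraries share depth and base composition trends across genes, and such values are high by selection. Ptch1 and Gli1 shared Irx1 as the closest gene (r = 0.949 and 0.955), followed by Scube3 for Ptch1 (0.942) and Macroh2a2 for Gli1 (0.953). Smo was closest to Smarcd1 (0.994) and Nlgn2 (0.993), and Sufu to Smarcc1 (0.973) and Rad54l2 (0.972). Gli3 was closest to Tiparp (0.983) and Gm10177 (0.982), Gli2 to Hscb (0.944) and Hmox2 (0.935), Boc to Smarce1 (0.963) and Fzd7 (0.940), and Gas1 to Trim32 (0.945) and Fxyd6 (0.926).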

How the data were processed

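OFT RNA from 4 control and 4 Mib1V943F/+ Gata6STOP/+ pools was sequenced as directional poly(A) libraries. Per the labels and the study's methods, the authors trimmed reads with cutadapt, quantified genes with RSEM on GRCm38, retained those reaching 1 CPM in 3 or more libraries, and deposited TMM-normalized CPM values. Such values are shares of a library. Every listed gene reached 1 CPM in at least 4 libraries, more than the stated rule asks, and genes filtered out could not be examined. From the deposited values, log2(CPM + 0.5) was tested with limma 3.58.1 (R 4.3.3, empirical Bayes with a mean trend, 2 groups, no covariate). Adjustment was by Benjamini-Hochberg over all 14608 genes, and the threshold was 0.05. A single gene was also tested by exact two-sided permutation over 70 relabellings. The limma step was tested on simulated data. Separate cultures or litters are not given beyond pools of individuals, and p-values measure the spread between these libraries.

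The 8 genes, pathway lists and cell type marker lists were chosen with earlier results of these data known. Pathway genes were named by a rule: Shh, Ihh, Dhh, Hhip, Cdon and Kif7 in any case (Shh, Ihh and Hhip are not listed, and 1 further gene of the rule is not reported here), and in each pathway list those with an unadjusted p below 0.05 or, without such a gene, the 2 with the smallest p. Transcript length and GC came from the longest transcript in GENCODE's annotation of GRCm38, matched by identifier for 14594 genes. Reads were estimated from a CPM step searched over low values, at which values were whole within 0.05 reads, but a second check did not accept whole reads in every column, and they served only to describe depth and counting error. Alternatives were other pseudocounts, filters, scalings, the GC trend, a replicate block, and leaving out each library.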

Additional observations from a re-analysis of the deposited data

Results flagged for a closer look

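Among 42 groups of 4 libraries (21 genes, the 8 Hedgehog genes and the named pathway genes, in each genotype), 4 held a library that was far from the other 3 by Dixon's test at its 95% critical value, and chance gives about 1 in 20. Mutant replicate 1 was high for Ptch1 at 73.7 CPM and for Gli1 at 27.2 CPM. Mutant replicate 2 was low for Sufu at 42.7 CPM. Control replicate 1 was low for Gas1 at 66.2 CPM. All 4 were among the 16 groups of the 8 Hedgehog genes, and Ptch1 and Gli1 were flagged for the same library. The 1 in 20 is nominal, and the share of all genes past this rule is not given here. The count is therefore not read as a result about the Hedgehog genes.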

How the results depend on the processing

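No gene of the table had an adjusted p below 0.05 under any of the 18 alternatives run with limma, and the smallest adjusted p of a Hedgehog gene was 0.167. Of 144 recomputed log2 fold changes of the 8 genes, 136 kept their direction. Smo reversed to 0.06 and Sufu to 0.02 with the GC trend removed, with the replicate block and GC trend removal together, and without mutant replicate 2. Gas1 reversed to -0.02 without control replicate 1, and Gli1 to -0.25 without mutant replicate 1. The cause was not tested. Leaving out single libraries gave ranges of 0.01 to 0.28 for Ptch1, -0.10 to 0.06 for Smo, 0.11 to 0.22 for Boc, -0.02 to 0.11 for Gas1, -0.08 to 0.02 for Sufu, -0.25 to 0.87 for Gli1, 0.10 to 0.20 for Gli2 and 0.13 to 0.24 for Gli3. The count of the 8 genes with an unadjusted p below 0.05 was 1. It became 4 with the GC trend removed (11.2% of all genes), and 0 in a fit without a mean trend (1594 of 14608 genes). It was 0 to 1 with single libraries left out, with 0 without control replicate 1 or 3 or mutant replicate 3 or 4. The number of the 8 genes without overlap between groups was 0 (7.1% of all genes), and 0 to 1 when single libraries were left out. It was 1 each without control replicate 4 or mutant replicate 1 (Gli3) and without mutant replicate 2 (Boc). In each case the library left out was one that caused the overlap, so the separation followed from its removal. No share over all genes is given for these subsets. For all genes, the unadjusted count of 1763 ranged from 1121 (without control replicate 2) to 2163, and was 1172 without control replicate 3. Plain CPM gave 1161 higher of 1901, against 796 of 1763, and no scaling shifted the median of all genes by more than 0.022.

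Replicate numbers did not pair the samples: deviations of same-numbered libraries from their group means correlated at 0.035, -0.185, 0.027 and -0.045, and no library correlated best with its own number. With the replicate block, the count of Hedgehog genes below an unadjusted 0.05 was 0, and that of all 14608 genes was 1304. With the GC trend also removed, these counts were 4 and 1493. The 3 planned tests on reads (edgeR's quasi-likelihood and likelihood ratio tests and DESeq2) were not run, because a check that takes the smallest value of a column as 1 read did not accept whole reads in every column. The reads given here use a step found over the low values and share that doubt. Gli1, at 35 to 109 reads in 7 libraries, carries the largest counting error of the 8.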
